A study of Mus musculus with 16 samples.

Results

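The MHC class II antigen presentation genes were described in bulk RNA-seq of knee joint cells from wildtype and Trem2-/- mice before and after joint injury. They were chosen by name and function, as 7 genes: the chains H2-Aa, H2-Ab1 and H2-Eb1, the invariant chain Cd74, the peptide exchange subunits H2-DMa and H2-DMb1, and the transactivator Ciita. Of these, 6 were listed among the 13733 genes of the deposited table and all 6 passed the filter on low values. H2-DMb1 was not analysed here. The 16 libraries fell into 4 groups of 4, set by genotype (WT or Trem2-/-) and by day (D0 or D7). WT mice were C57BL/6 and Trem2-/- mice carried a germline knockout of Trem2, a surface receptor of myeloid cells, so the knockout was not limited to macrophages. Both lines came from the Jackson Laboratory. The study's methods give the knockout as a line on C57BL/6J, the strain of the WT mice, and the mice as male. Joints at D0 were uninjured, and those at D7 were collected 7 days after an anterior cruciate ligament injury, produced at 10 weeks of age by a single compressive overload of the tibia. The labels give an age of 16 weeks and whole-joint homogenates of diabetic and control mice elsewhere, while the study's methods describe enzymatically released joint cells. For these cells the methods refer to the single-cell protocol, which includes a separation by CD45, and do not say whether that step was applied to the bulk libraries or which fraction was taken. The labels number the samples of a group but do not say that each came from its own mouse, so the p-values measure the spread between these samples.

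MHC class II molecules are heterodimers of an alpha and a beta chain that present peptides from the endocytic route to CD4 T cells. Dendritic cells, B cells and macrophages carry them at rest or after activation, and in the joint they are used as markers of antigen-presenting cells. The invariant chain blocks the groove of the new heterodimer, cathepsins degrade it to the fragment CLIP, and the DM heterodimer exchanges CLIP for peptide while the DO heterodimer, made mainly by B cells, restrains DM. CIITA is the master coactivator of this gene set: it binds no DNA itself but docks on RFX, CREB and NF-Y proteins that sit on the X and Y boxes upstream of each gene. C57BL/6 mice make I-A, the product of H2-Aa and H2-Ab1, while a defect in their E alpha gene leaves the H2-Eb1 chain without its partner.

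H2-Aa lies on chromosome 17 at 34282744 to 34287823, H2-Ab1 at 34257689 to 34269419, H2-Eb1 at 34305867 to 34316674 and H2-DMa at 34119541 to 34139101 (GRCm38, GENCODE M21 annotation). Trem2 itself is on the same chromosome at 48346401 to 48354147, about 14.1 Mb from H2-Aa. Ciita lies on chromosome 16 at 10480059 to 10528418. H2-Aa, H2-Ab1, H2-Eb1 and Cd74 shared none of their 75-base exon stretches with another gene. For H2-DMa 7.46% of the stretches were shared, all with Brd2 on the opposite strand, and for Ciita 0.765%, with Dexi on the opposite strand. The study's methods name a stranded library kit and the labels a different kit, and whether counting used strand is not given in the sources used here, so reads from these stretches may belong to either gene.

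The X and Y boxes can be read in the RefSeq promoter sequences of the GRCm38.p6 build. They are shown for H2-Aa and H2-Eb1, which were not called after injury, and for H2-Ob, the DO beta gene, which fell. Each run covers bases 150 to 16 before the annotated start on the gene's strand, with an X box core (GCAAC) and a Y box core (TGATTGG) in capitals. H2-Aa is from chr17:34287839-34287973 on the minus strand, H2-Eb1 from chr17:34305717-34305851 and H2-Ob from chr17:34238755-34238889, both on the plus strand.
H2-Aa: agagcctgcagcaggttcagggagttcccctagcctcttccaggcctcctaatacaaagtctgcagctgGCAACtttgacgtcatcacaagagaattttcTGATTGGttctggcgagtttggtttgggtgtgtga
H2-Eb1: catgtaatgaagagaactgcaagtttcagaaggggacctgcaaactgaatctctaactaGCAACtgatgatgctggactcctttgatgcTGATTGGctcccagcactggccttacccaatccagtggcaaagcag
H2-Ob: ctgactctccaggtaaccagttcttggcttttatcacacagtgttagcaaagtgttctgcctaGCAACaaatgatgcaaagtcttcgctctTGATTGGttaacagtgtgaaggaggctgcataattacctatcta
The start of the X core lay 81 bases before the start of H2-Aa, 91 before H2-Eb1 and 87 before H2-Ob, and the Y core followed 31, 30 and 28 bases further on. H2-Oa and H2-Eb2 held the same arrangement, with distances of 31 and 30 bases. Both strands of the 250 bases before each start were searched. Of 32851 promoter windows, 7.23% held the Y core, 29.9% held the X core and 0.225% held an X core followed by a Y core at a distance of 20 to 45 bases. The cores and the spacing were chosen with these sequences in view, and a match is a description of letters, not of bound protein. H2-DMa held no Y core in either of its windows.

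Values are CPM after TMM scaling, so each library's reads are expressed against the same effective depth. Differences are log2 fold changes on the log2(CPM + 1) scale, which understates the change of low genes. A gene was called with a limma p under 0.05 and a log2 fold change beyond 0.32 in either direction, the rule of the study's methods, and adjusted p-values are Benjamini-Hochberg values over all 13173 genes tested. The D7 vs D0 and the genotype comparisons share groups, so their counts are not independent. The share of all genes whose groups separate without overlap was not counted for any comparison. Libraries held 11567073 to 32867818 reads. Trem2 was at 2.51, 4.88, 5.26 and 5.61 CPM at WT D0, at 15.1, 22.5, 18.9 and 10.7 at WT D7, at 1.88, 0.948, 2.68 and 1.70 at Trem2-/- D0 and at 4.13, 4.69, 3.42 and 4.84 at Trem2-/- D7. Trem2 reads were therefore lower but not absent in the knockout, and the lowest WT D0 library lay within the Trem2-/- D0 range. Summed markers of leukocytes (6 genes) were at 2093 to 4293 CPM at WT D0, 1214 to 2556 at WT D7, 2653 to 4602 at Trem2-/- D0 and 902 to 1132 at Trem2-/- D7. Joint stromal markers (8 genes) summed to 11040 to 59910, 127400 to 179100, 7400 to 17190 and 123800 to 179900 CPM in the same order. Leukocyte sums overlapped between D0 and D7 in WT (exact permutation p = 0.0571) but not in Trem2-/- mice (exact permutation p = 0.0286), and stromal sums did not overlap in either genotype (exact permutation p = 0.0286 each). These bulk values are shares of each library. Fewer cells of a type, less RNA per cell and more RNA from other cells therefore cannot be told apart.

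After injury the class II genes did not move as a block. H2-Aa, H2-Ab1 and H2-Eb1 had log2 fold changes near 0 in both genotypes, with 95% intervals reaching no further than -0.54 and 0.49. Ciita fell in both genotypes by the call rule, Cd74 and H2-DMa fell in Trem2-/- mice, and the DO genes H2-Oa and H2-Ob fell in both. In WT mice 1 of 6 members was called (Ciita, lower), against 18.2% of all genes tested called lower, and 0 at an adjusted p under 0.05 with limma, against 12.6% of all genes. Ciita was also the member with an unadjusted p under 0.05, and edgeR and DESeq2 called it by the same rule. In Trem2-/- mice 3 of 6 members were called lower (Cd74, H2-DMa and Ciita), against 27.9% of all genes, and the same 3 passed at an adjusted p under 0.05, against 27.2%. The median log2 fold change of the 6 members was -0.07 in WT and -0.30 in Trem2-/- mice, and over all genes it was -0.04 in each.

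**Figure D1:**
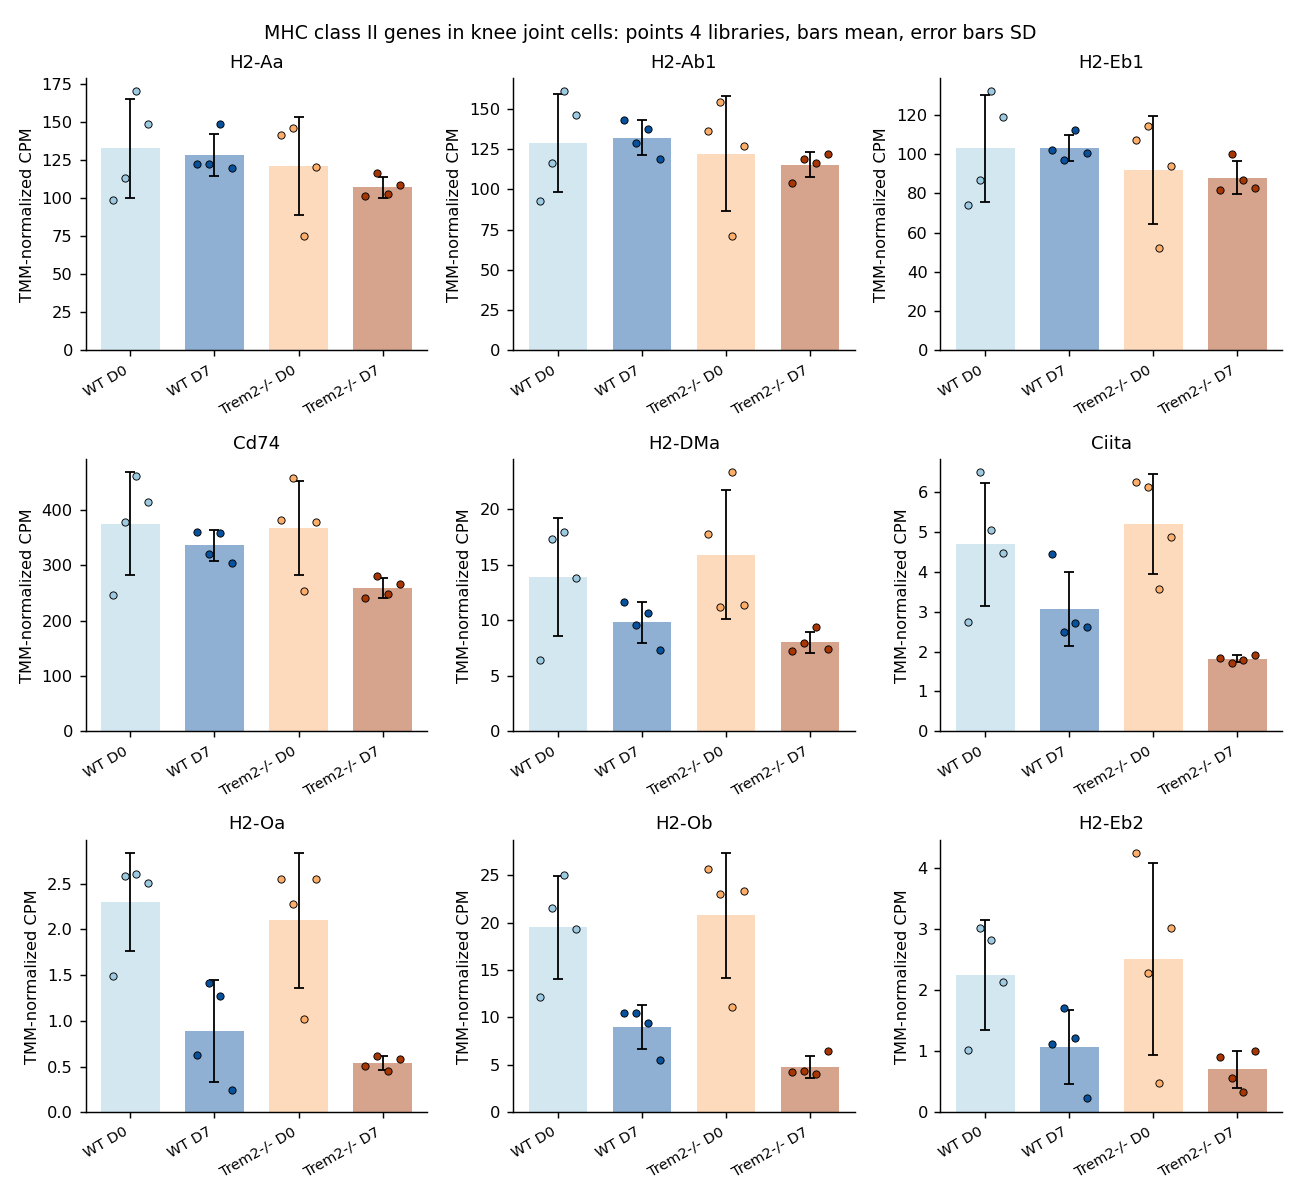
TMM-normalized CPM of 6 class II members and of H2-Oa, H2-Ob and H2-Eb2 in the 4 groups. Bars show the mean, error bars the SD and points the 4 libraries of a group, on axes that start at 0. H2-Aa, H2-Ab1 and H2-Eb1 have similar means with a wide D0 spread. Every gene shown has its lowest mean in Trem2-/- D7, with Ciita and H2-Ob at 1.82 and 4.78 CPM.

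Levels can be compared between genes per kb of merged exons. At WT D0 Cd74 was highest at 223 ± 55.2 CPM per kb (SD, n = 4), followed by H2-Eb1 at 52.9 ± 13.9 and H2-Ab1 at 50.3 ± 11.8. H2-Aa was at 34.9 ± 8.59, H2-DMa at 4.03 ± 1.53, H2-Ob at 3.63 ± 1.01 and Ciita at 0.49 ± 0.16 CPM per kb. On this scale the neighbours H2-Eb1 and H2-Ab1 differed by less than their SD in every group, and so did H2-DMa and H2-Ob at D0 in both genotypes. At D7 H2-DMa stood above H2-Ob by more than their SD per kb, with 2.84 ± 0.53 against 1.66 ± 0.43 CPM per kb in WT and 2.32 ± 0.28 against 0.89 ± 0.22 in Trem2-/- mice. In CPM without length they were at 9.81 ± 1.83 and 8.96 ± 2.34 in WT and at 8.01 ± 0.95 and 4.78 ± 1.16 in Trem2-/- mice. The WT difference per kb therefore depends on the lengths used.

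H2-Aa encodes the alpha chain of I-A. Its level was 98.6, 113, 169.9 and 149 CPM at WT D0, 122, 122, 149 and 119.6 at WT D7, 142, 146, 75.3 and 121 at Trem2-/- D0, and 101, 116, 103 and 108 at Trem2-/- D7. The D0 libraries enclosed the whole D7 range in WT, and WT replicate 1 and Trem2-/- replicate 3 were the lowest at D0. D7 vs D0 differed by -0.02 in WT (limma, 95% interval -0.43 to 0.39) and by -0.13 in Trem2-/- mice (-0.54 to 0.28), and neither was called.

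H2-Ab1, the beta chain of I-A, was at 92.9, 117, 160.9 and 146 CPM at WT D0 and at 143, 129, 138 and 119 at WT D7. In Trem2-/- mice it was at 136, 154, 71.2 and 127 CPM at D0 and at 104, 119, 117 and 122 at D7. The D7 libraries lay inside the D0 range in both genotypes. The log2 difference D7 vs D0 was 0.06 in WT (limma, 95% interval -0.37 to 0.49) and -0.03 in Trem2-/- mice (-0.46 to 0.41).

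H2-Eb1, the beta chain of I-E, which finds no alpha chain in C57BL/6 mice, was at 73.9, 86.7, 131.9 and 119 CPM at WT D0 and at 101.9, 97.1, 112 and 100.4 at WT D7. Trem2-/- libraries had it at 107, 114, 52.3 and 94.2 CPM at D0 and at 81.9, 100, 86.7 and 82.7 at D7. Group ranges again overlapped. D7 vs D0 differed by 0.04 in WT (limma, 95% interval -0.42 to 0.49) and by -0.01 in Trem2-/- mice (-0.46 to 0.45).

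The 3 chains moved together from library to library. Over the 16 libraries Pearson's r on the log2 scale was 0.937 for H2-Aa with H2-Ab1, 0.97 for H2-Aa with H2-Eb1 and 0.958 for H2-Ab1 with H2-Eb1. With the group means removed the values were 0.95, 0.982 and 0.958. These genes share libraries, scaling and a stretch of chromosome 17, so the values are descriptive. H2-Aa per H2-Ab1 stayed between 0.854 and 1.08 and H2-Eb1 per H2-Ab1 between 0.677 and 0.846 in all 16 libraries. The spread among replicates was wider before injury: the coefficient of variation of the chains was 23.5% to 30.1% at D0 and 6.38% to 10.7% at D7, over both genotypes.

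WT D0 replicate 1 and Trem2-/- D0 replicate 3 held the lowest chain values of their groups. They were left out together in a fit added after their values were seen. Since this choice by itself raises the D0 chain levels, the chain differences without them are a description with no test, at -0.34 for H2-Aa, -0.26 for H2-Ab1 and -0.26 for H2-Eb1 on the log2 scale in Trem2-/- mice.

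Cd74 encodes the invariant chain, which fills the groove until the heterodimer reaches the endosome. It lies on chromosome 18 at 60803848 to 60812652, where its exons overlap the small RNA gene Mir5107. Its level was 245, 379, 461 and 415 CPM at WT D0 and 360.4, 320, 359 and 304 at WT D7. The Trem2-/- values were 381, 457, 253 and 378 CPM at D0 and 242, 279.8, 248 and 265 at D7. The Trem2-/- D7 libraries sat near the lowest D0 library, Trem2-/- replicate 3, while the other 3 D0 libraries were all above them. Cd74 fell by 0.48 on the log2 scale in Trem2-/- mice (limma, SE 0.19, Benjamini-Hochberg adjusted p = 0.0447), and the exact permutation p of 0.0857 did not pass. In WT mice the difference was -0.12 (95% interval -0.53 to 0.28).

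The Cd74 call was lost when Trem2-/- D0 replicate 1, Trem2-/- D0 replicate 2 or Trem2-/- D7 replicate 1 was left out, with log2 fold changes of -0.45 to -0.36. It held under all 12 other ways of fitting or scaling that keep every library, and it was lost at a 1.5-fold threshold.

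H2-DMa is the alpha subunit of DM, the catalyst that exchanges CLIP for peptide. It was at 6.45, 17.4, 17.97 and 13.8 CPM at WT D0 and at 11.6, 9.57, 10.7 and 7.37 at WT D7. Among Trem2-/- libraries it was at 17.7, 11.2, 23.3 and 11.4 CPM at D0 and at 7.26, 7.99, 9.35 and 7.42 at D7. The Trem2-/- groups did not overlap, though the share of all genes that separate so was not counted. In WT replicate 1 at D0 lay below every D7 library. H2-DMa fell by 0.85 on the log2 scale in Trem2-/- mice (limma, SE 0.28, Benjamini-Hochberg adjusted p = 0.0172), and the exact permutation p was 0.0286, the smallest that 70 assignments allow. In WT mice the difference was -0.39 (95% interval -0.98 to 0.20), and it was called without WT D0 replicate 1 (log2 fold change -0.69).

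Unlike the chains, H2-DMa was highest where they were lowest in Trem2-/- D0 replicate 3, at 23.3 CPM. Over the 16 libraries its r with the 3 chains was between -0.01 and 0.14. The level of H2-DMa went with the summed T and NK cell markers (7 genes, r = 0.869, and 0.889 with group means removed), which stood at 59.6 CPM in that library and at 17.9 CPM in WT D0 replicate 1, where H2-DMa was lowest at D0. In Trem2-/- D0 replicate 3 the geometric mean of the 7 markers was 2.35 CPM, the lowest of its group (others 2.84 to 4.40). The high sum there thus came from part of the list. H2-DMa was also high with other sums, at r = 0.799 for leukocytes, 0.776 for neutrophils and 0.757 for dendritic cells. With group means removed these were 0.634, 0.541 and 0.536. The part of any of these cells in the H2-DMa values was not tested.

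H2-Oa and H2-Ob, the alpha and beta subunits of DO, the inhibitor of DM, were fixed as pathway partners of the members, together with the class II beta gene H2-Eb2. H2-Ob was at 12.2, 21.6, 25.04 and 19.3 CPM at WT D0 and at 10.4, 10.4, 9.45 and 5.52 at WT D7. It was at 25.7, 23.0, 11.1 and 23.3 CPM at D0 and at 4.23, 4.34, 4.03 and 6.51 at D7 in Trem2-/- mice. D0 and D7 did not overlap in either genotype, and each D7 group held the lower values. For this separation too, the share of all genes was not counted. H2-Ob fell by 1.04 on the log2 scale in WT (limma, SE 0.27, Benjamini-Hochberg adjusted p = 0.0123) and by 1.87 in Trem2-/- mice (SE 0.27, adjusted p = 6.78e-05), with an exact permutation p of 0.0286 in each.

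H2-Oa was at 1.49 to 2.60 CPM at WT D0, 0.238 to 1.42 at WT D7, 1.01 to 2.55 at Trem2-/- D0 and 0.448 to 0.620 at Trem2-/- D7. It was also separated between D0 and D7 in both genotypes, with log2 fold changes of -0.84 (limma, Benjamini-Hochberg adjusted p = 0.0138) and -0.97 (adjusted p = 0.00207). H2-Oa rests on 4 to 54 reads a library, and 11.8% of its exon stretches are shared with BC051537 on the opposite strand. H2-Eb2, at 4 to 63 reads a library, fell in Trem2-/- mice (log2 fold change -0.92, limma, Benjamini-Hochberg adjusted p = 0.0342), a call lost without Trem2-/- D0 replicate 1 and with voom. The Trem2-/- groups overlapped for H2-Eb2 (exact permutation p = 0.114). Its WT difference was -0.66 (95% interval -1.39 to 0.07), called without WT D0 replicate 1 (-0.87) or WT D7 replicate 2 (-0.80). Of these 3 partners, 2 were called lower in WT and 3 in Trem2-/- mice, against 18.2% and 27.9% of all genes. H2-Ob per H2-DMa, the ratio of a DO to a DM transcript, had a mean of 1.48 at WT D0, 0.906 at WT D7, 1.51 at Trem2-/- D0 and 0.608 at Trem2-/- D7. Its values ran from 1.24 to 1.89, 0.75 to 1.09, 0.476 to 2.06 and 0.431 to 0.876 in that order, so the Trem2-/- groups overlapped through D0 replicate 3, at 0.476.

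Ciita, the coactivator, was at 2.75, 6.50, 5.05 and 4.47 CPM at WT D0 and at 4.46, 2.49, 2.72 and 2.61 at WT D7. In Trem2-/- mice it was at 6.25, 6.13, 3.58 and 4.87 CPM at D0 and at 1.85, 1.72, 1.79 and 1.92 at D7. All 4 Trem2-/- D7 libraries were below every other library, and their coefficient of variation was 4.56%. No count over all genes was made for such a separation. In WT the groups overlapped, since D0 replicate 1 lay among the D7 values and D7 replicate 1 among the D0 values.

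Ciita fell by 1.11 on the log2 scale in Trem2-/- mice (limma, SE 0.21, Benjamini-Hochberg adjusted p = 0.000456), the groups did not overlap (exact permutation p = 0.0286), and it was called in all 20 alternatives that could test it. In WT it fell by 0.46 (limma, SE 0.21, adjusted p = 0.101), and the exact permutation p was 0.0571. The WT call rested on single libraries: it was lost when any of WT D0 replicates 2, 3 and 4 or WT D7 replicates 2, 3 and 4 was left out, with log2 fold changes of -0.47 to -0.32. Ciita counts were low, between 23 and 136 reads a library.

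**Figure D2:**
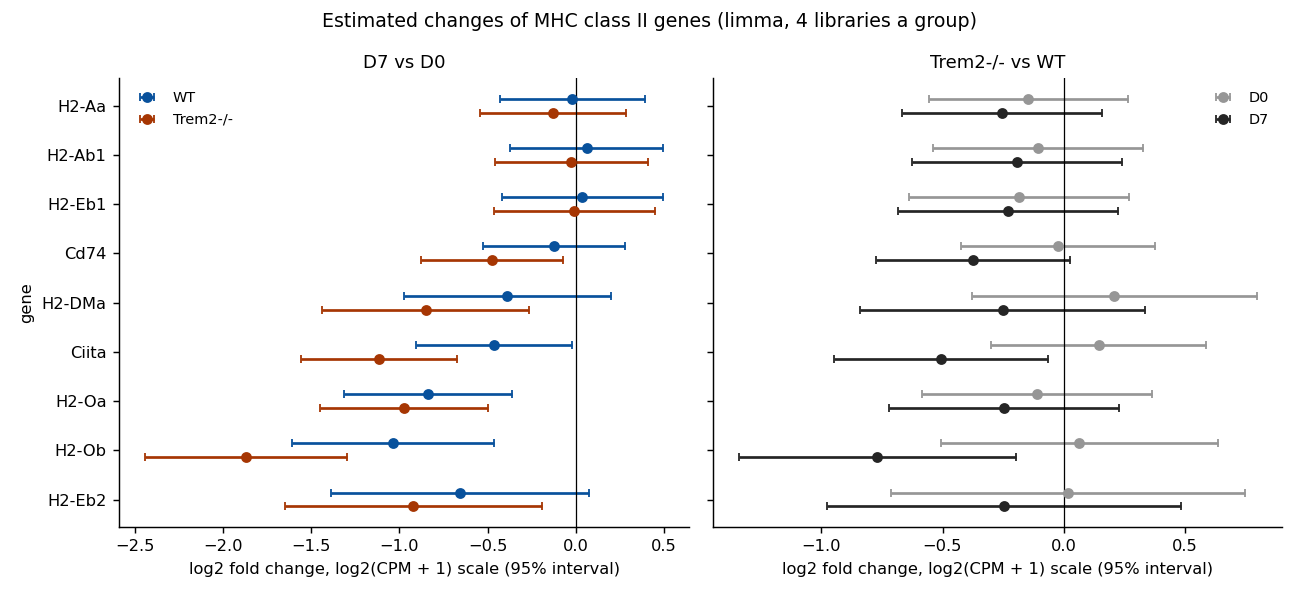
Log2 fold changes on the log2(CPM + 1) scale from limma with 95% intervals, for D7 vs D0 in each genotype (left) and Trem2-/- vs WT at each day (right), 4 libraries a group. The 3 chains lie near 0 on the left, while Ciita and H2-Ob reach -1.11 and -1.87 in Trem2-/- mice.

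The genotypes were compared next. At D0 none of the 6 members was called in either direction by limma, against 2.15% of all genes, none had an unadjusted p under 0.05, and their median log2 difference was -0.06. The differences at D0 ran from -0.18 for H2-Eb1 (95% interval -0.64 to 0.27) to 0.21 for H2-DMa (-0.38 to 0.80). At D7 1 of 6 members was called lower in Trem2-/- mice (Ciita), against 4.53% of all genes, and all 6 had a negative difference, with a median of -0.25 against 0.01 over all genes. In the limma fit of all 4 groups no gene of the whole table passed an adjusted p under 0.05 for genotype at either day, while 958 genes had an unadjusted p under 0.05 at D7 and 385 at D0, and edgeR gave 0 adjusted calls and DESeq2 39 at D7 and 1 at D0. Other limma settings gave adjusted calls at D7 too, 5 with only the compared groups and 1 each with a pseudocount of 5, without the trend, with voom, and without WT D7 replicate 1 or 4.

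At D7 Ciita was lower in Trem2-/- mice than in WT by 0.51 log2 units (limma, SE 0.21, Benjamini-Hochberg adjusted p = 0.62). The WT D7 libraries lay at 2.49 to 4.46 CPM and the Trem2-/- D7 libraries at 1.72 to 1.92 CPM, without overlap (exact permutation p = 0.0286). The call was lost without WT D7 replicate 1 or without Trem2-/- D7 replicate 2, with log2 differences of -0.36 and -0.49.

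Cd74 and H2-Aa were also separated between the genotypes at D7, though how many of all genes separated so was not counted. Cd74 lay at 304 to 360.4 CPM in WT and at 242 to 279.8 in Trem2-/- mice, a log2 difference of -0.37 (limma, 95% interval -0.77 to 0.03, adjusted p = 0.713). H2-Aa lay at 119.6 to 149 CPM in WT and at 101 to 116 in Trem2-/- mice, a log2 difference of -0.25 (-0.67 to 0.16, adjusted p = 0.82). In the same comparison 5 of 6 leukocyte genes were called lower, against 4.53% of all genes. The leukocyte genes had a median of -0.69, and their part in these differences was not tested. Cd74 and H2-Aa had an exact permutation p of 0.0286 each, and neither was called by limma, whose spread is shared with the wider D0 groups. Cd74 was called when only the compared groups were fitted and after quantile normalization. H2-Ab1 and H2-Eb1 overlapped between the genotypes, with an exact permutation p of 0.0571 each, and H2-DMa had 0.143. Among 56 single-value permutation tests of members and marker sums, 21 had p under 0.05 and the smallest adjusted p was 0.0762.

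The interaction asks whether the response to injury differed between the genotypes. It was called for 1 of 6 members, Ciita, lower in Trem2-/- mice by 0.65 log2 units (limma, SE 0.29, Benjamini-Hochberg adjusted p = 0.61), against 5.02% of all genes. This call was lost in 10 of 16 fits that left out 1 library, with differences of -0.67 to -0.46: those without WT D0 replicate 1 or 4, WT D7 replicate 1, Trem2-/- D0 replicate 1, 2 or 4, or any Trem2-/- D7 replicate. The interaction of Cd74 was -0.35 (95% interval -0.92 to 0.22), and it was called only without Trem2-/- D0 replicate 3 (-0.52). That of H2-DMa was -0.46 (-1.29 to 0.37). The 3 chains were between -0.11 and -0.05. Of the partners, H2-Ob was called, lower by 0.83 log2 units (limma, Benjamini-Hochberg adjusted p = 0.61), and this was lost in 11 of the 16 fits.

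Ratios within a library do not depend on scaling. Cd74 per H2-Ab1 had a mean of 2.90 ± 0.253 (SD, n = 4) at WT D0, 2.54 ± 0.0529 at WT D7, 3.07 ± 0.33 at Trem2-/- D0 and 2.24 ± 0.111 at Trem2-/- D7. The values were 2.64 to 3.25, 2.48 to 2.60, 2.80 to 3.55 and 2.13 to 2.36 in that order, so D0 and D7 did not overlap within either genotype and the D7 groups did not overlap with each other. Taken as H2-Ab1 per Cd74, the D7 to D0 fold was 1.14 in WT and 1.37 in Trem2-/- mice, each with an exact permutation p of 0.0286. H2-Aa per Cd74 was 1.27-fold and H2-Eb1 per Cd74 1.38-fold higher at D7 in Trem2-/- mice, with the same exact permutation p of 0.0286. In WT mice H2-Aa per Cd74 was 1.08-fold (exact permutation p = 0.4) and H2-Eb1 per Cd74 1.12-fold (exact permutation p = 0.171). Ciita per Cd74 had a D7 to D0 fold of 0.498 in Trem2-/- mice (exact permutation p = 0.0286). Of 20 such ratio tests, 6 had p under 0.05, and the smallest adjusted p was 0.0952. Ratios of other genes were not counted for comparison.

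**Figure D3:**
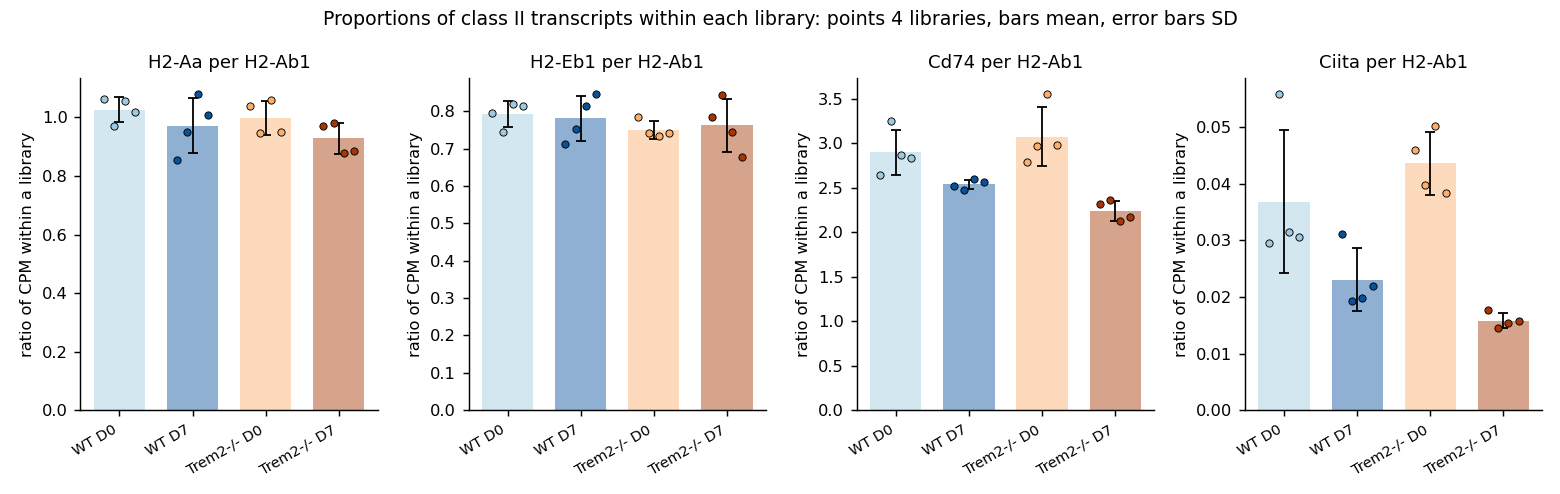
Ratios of CPM within each library for H2-Aa, H2-Eb1, Cd74 and Ciita per H2-Ab1. Bars show the mean, error bars the SD and points the 4 libraries of a group. The chain ratios are flat, Cd74 per H2-Ab1 drops to 2.13 to 2.36 in Trem2-/- D7, and Ciita per H2-Ab1 drops from a mean of 0.0436 to 0.0158 in Trem2-/- mice.

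The genes around the class II pathway were taken from lists of fixed membership. Among 7 of 8 listed antigen processing genes, 3 were called higher in WT at D7 (Lgmn, Ctss and Ctsb), against 19.3% of all genes called higher. In Trem2-/- mice 2 were called higher (Lgmn and Ctsb), against 26.5% of all genes, and Ctsd was called lower. Lgmn, which encodes the asparaginyl endopeptidase legumain, averaged 93.2 ± 23.6 CPM (SD, n = 4) at WT D0, 240.5 ± 46.3 at WT D7, 79.6 ± 15.1 at Trem2-/- D0 and 246 ± 22.6 at Trem2-/- D7, a rise of 1.37 and 1.63 log2 units. Ctss, the cathepsin that makes the last cuts in the invariant chain, went from 118 ± 42.4 to 247 ± 58.9 CPM in WT (log2 fold change 1.11, called) and from 130.2 ± 31.2 to 168 ± 21.5 in Trem2-/- mice (0.39, not called). Ctsb, an endosomal cysteine protease, rose by 0.75 and 0.89 log2 units. Ctsd, an endosomal aspartic protease, had a log2 fold change of 0.06 in WT and fell by 0.42 in Trem2-/- mice, a call lost without Trem2-/- D0 replicate 1 or 2 or Trem2-/- D7 replicate 1. None of the 7 was called between genotypes at D7 with all libraries, but Ctsd was called lower in Trem2-/- mice without WT D7 replicate 1 (-0.38) and Ctss without WT D7 replicate 4 (-0.72).

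Of 7 subunits of the factors that CIITA docks on, 2 were called lower in WT (Creb1 and Nfyb) and 3 in Trem2-/- mice (Nfya, Nfyb and Creb1), against 18.2% and 27.9% of all genes. Nfyb, an NF-Y subunit, fell from a mean of 40.9 to 26.5 CPM in WT and from 39.8 to 25.1 in Trem2-/- mice, or by 0.60 and 0.64 log2 units. Creb1 fell by 0.39 and 0.62, and Nfya by 0.70 in Trem2-/- mice with a WT difference of -0.29, which had an adjusted p under 0.05 but missed the fold threshold (limma, Benjamini-Hochberg adjusted p = 0.0292) and passed it without WT D0 replicate 4 (-0.35). Rfx5, the X box subunit of RFX, had log2 fold changes of -0.21 and -0.23 and was not called in either genotype.

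Interferon-gamma is the classical inducer of Ciita. Of 9 genes of its pathway, 4 were called lower in WT, among them Irf1, Ifngr1 and Irf8, and 5 in Trem2-/- mice, among them Ifng and the same 3, against 18.2% and 27.9% of all genes called lower, and none was called higher. Irf8, a factor of dendritic cells and B cells, fell from a mean of 66.1 to 34.4 CPM in WT and from 75.4 to 29.1 in Trem2-/- mice, or by 0.92 and 1.35 log2 units. Irf1, an interferon-induced activator of Ciita, fell by 0.77 and 1.19, and its WT call was lost without WT D0 replicate 1 or 3 or WT D7 replicate 3 or 4. Ifngr1, the ligand-binding receptor subunit, fell by 0.60 and 0.84. Ifng was at means of 2.13 CPM at WT D0 and 1.33 at WT D7, and of 2.77 and 0.71 CPM at D0 and D7 in Trem2-/- mice, with log2 fold changes of -0.44 (not called) and -1.12. No gene of this pathway was called between the genotypes at D7 with all libraries, but without WT D7 replicate 4 Irf8 (-0.34) and Ifng (-0.65) were called lower in Trem2-/- mice.

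Class I presentation was compared as the other arm. Of 9 listed genes, 6 were called lower in WT and 8 in Trem2-/- mice, against 18.2% and 27.9% of all genes. The median log2 fold changes of the list were -0.56 and -0.76, and none of the 9 was called between genotypes at D7. The costimulation list (5 genes) had 2 called lower in WT (Cd274 and Icosl) and 4 in Trem2-/- mice, against the same shares. Its medians were -0.22 and -0.70. At D7 Icosl and Cd86 were called lower in Trem2-/- than WT mice, against 4.53% of all genes. The difference between the medians of these lists and that of the class II members was not tested.

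Markers of the cells that carry class II moved in different directions. All 9 B cell markers were called lower at D7 in both genotypes (medians -1.31 and -1.99), against 18.2% of all genes in WT and 27.9% in Trem2-/- mice. Against 4.53% of all genes, 7 of the 9 B cell markers were called lower in Trem2-/- than WT mice at D7. Their sum was 130 to 349 CPM at WT D0, 54.5 to 110.1 at WT D7, 152 to 251 at Trem2-/- D0 and 34.8 to 47.8 at Trem2-/- D7, and no B cell marker was at 0 in any library. Cd79a, part of the B cell receptor, averaged 72.9, 25.3, 59.5 and 11.0 CPM in the same order.

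Against 18.2% of all genes in WT and 27.9% in Trem2-/- mice, dendritic cell markers (8 of 9 listed, without Itgax) were called lower for 3 and 5 genes. Their sum was 50.8 to 81.6, 30.5 to 45.4, 59.3 to 79.98 and 29.8 to 33.0 CPM. Cd209a, of monocyte-derived dendritic cells, fell by 0.87 and 1.05 log2 units, and Flt3, the receptor of dendritic cell growth, fell by 1.60 in Trem2-/- mice (WT -0.67, not called, but called without WT D0 or WT D7 replicate 1, at -1.01 and -0.81). Macrophage markers (9 genes) instead had 7 called higher in WT and 5 in Trem2-/- mice, against 19.3% and 26.5% of all genes. Cd68 was lower in Trem2-/- mice. The macrophage sum was 251 to 409, 549 to 741, 311 to 358 and 431 to 502 CPM. Adgre1, which encodes F4/80, rose by 1.43 and 0.82 log2 units, and Csf1r, the macrophage growth factor receptor, by 0.72 in WT against -0.04 in Trem2-/- mice. Csf1r, Cd68 and Adgre1 were called lower in Trem2-/- than WT mice at D7, against 4.53% of all genes.

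**Figure D4:**
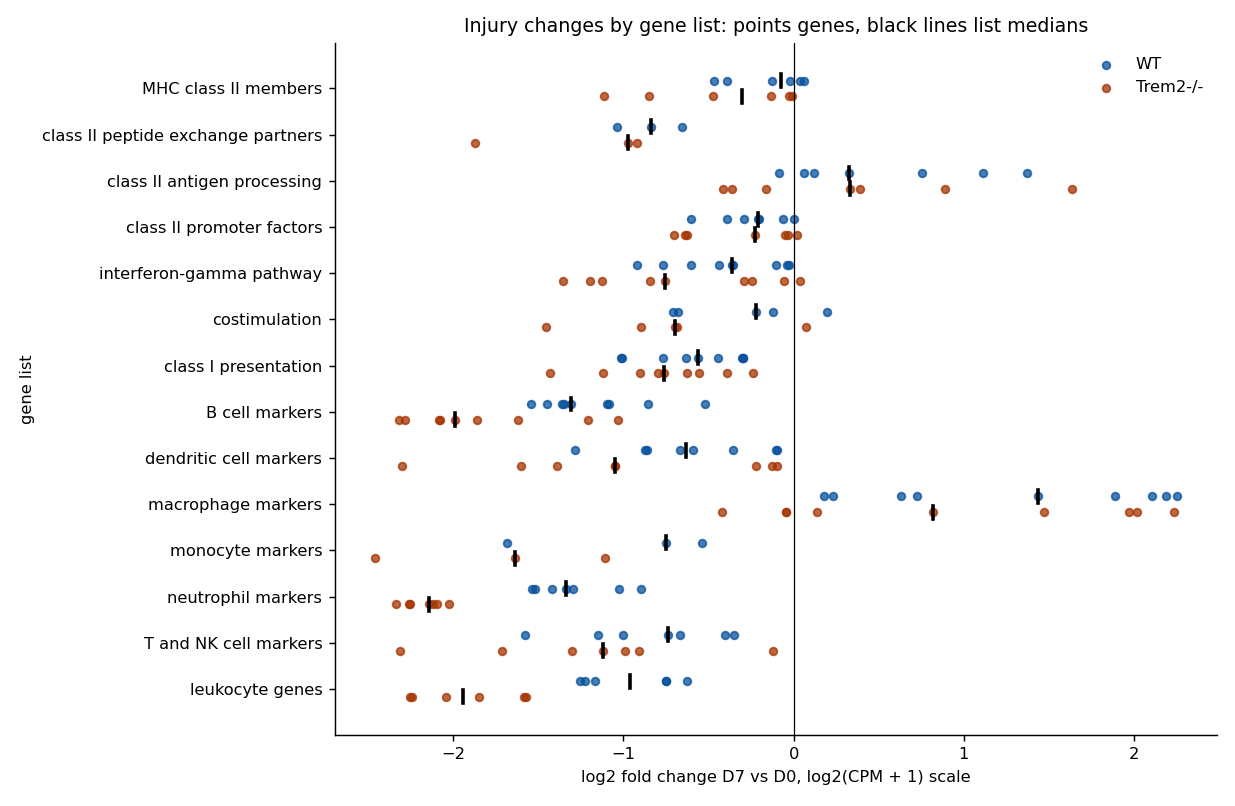
Log2 fold changes D7 vs D0 by gene list, with a point for each gene, blue for WT and brown for Trem2-/- mice, with the list median as a black line. The class II medians (-0.07 and -0.30) lie between those of the B cell markers (-1.31 and -1.99) and the macrophage markers (1.43 and 0.82). In Trem2-/- mice single class II members reach down to -1.11 (Ciita).

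The members were also set against these lists within each library, an addition made after the data were seen. Relative to the 6 leukocyte genes, H2-Ab1 at D7 was 2.04-fold its D0 value in WT and 3.74-fold in Trem2-/- mice, and Cd74 was 1.79-fold and 2.74-fold, with an exact permutation p of 0.0571 in WT and 0.0286 in Trem2-/- mice for each gene. Ciita relative to the same genes was 1.30-fold (exact permutation p = 0.629) and 1.36-fold (exact permutation p = 0.2). Relative to B cell markers H2-Ab1 was 2.59-fold and 4.43-fold (exact permutation p = 0.0286 each), and Ciita 1.65-fold (exact permutation p = 0.0571) and 1.62-fold (exact permutation p = 0.0286). Relative to macrophage markers all 6 members were lower at D7, without overlap in either genotype (exact permutation p = 0.0286 each), from 0.258-fold (Ciita) to 0.405-fold (H2-Ab1) in WT and from 0.182-fold to 0.505-fold (H2-Eb1) in Trem2-/- mice. Of 72 such tests 31 had p under 0.05, and the smallest adjusted p was 0.0664. The macrophage list itself rose at D7, while the leukocyte and B cell lists fell. A gene without change gives folds away from 1 as well, so these p-values do not test the members alone. The share of all genes that separate in this way was not counted. Which cells carried the class II reads cannot be told from these bulk values.

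The genes were also set against these sums across the 16 libraries. H2-Ob had an r of 0.966 with the B cell sum and 0.976 with the dendritic cell sum, and with group means removed 0.818 and 0.885. Its r was also high with other sums, at 0.87 for T and NK cells, 0.855 for leukocytes and 0.8 for monocytes. Ciita had 0.908 with the B cell sum and 0.91 with the dendritic cell sum, or 0.666 and 0.673 with group means removed. Other sums were high for Ciita too, at 0.854 for T and NK cells, 0.821 for leukocytes and 0.725 for neutrophils. With group means removed these were 0.459, 0.193 and -0.025. H2-Ab1 had 0.265 with the B cell sum and 0.268 with the dendritic cell sum. With group means removed they became 0.601 and 0.702, close in size to the values of Ciita for the same sums. With the macrophage sum and group means removed, r was 0.75 for H2-Ob, 0.434 for Ciita and 0.666 for H2-Ab1. Cd74 lay between, at 0.752 with the B cell sum. All these values share libraries and group differences and have no test, and the part of B cells and dendritic cells in the injury changes of H2-Ob and Ciita was not tested.

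**Figure D5:**
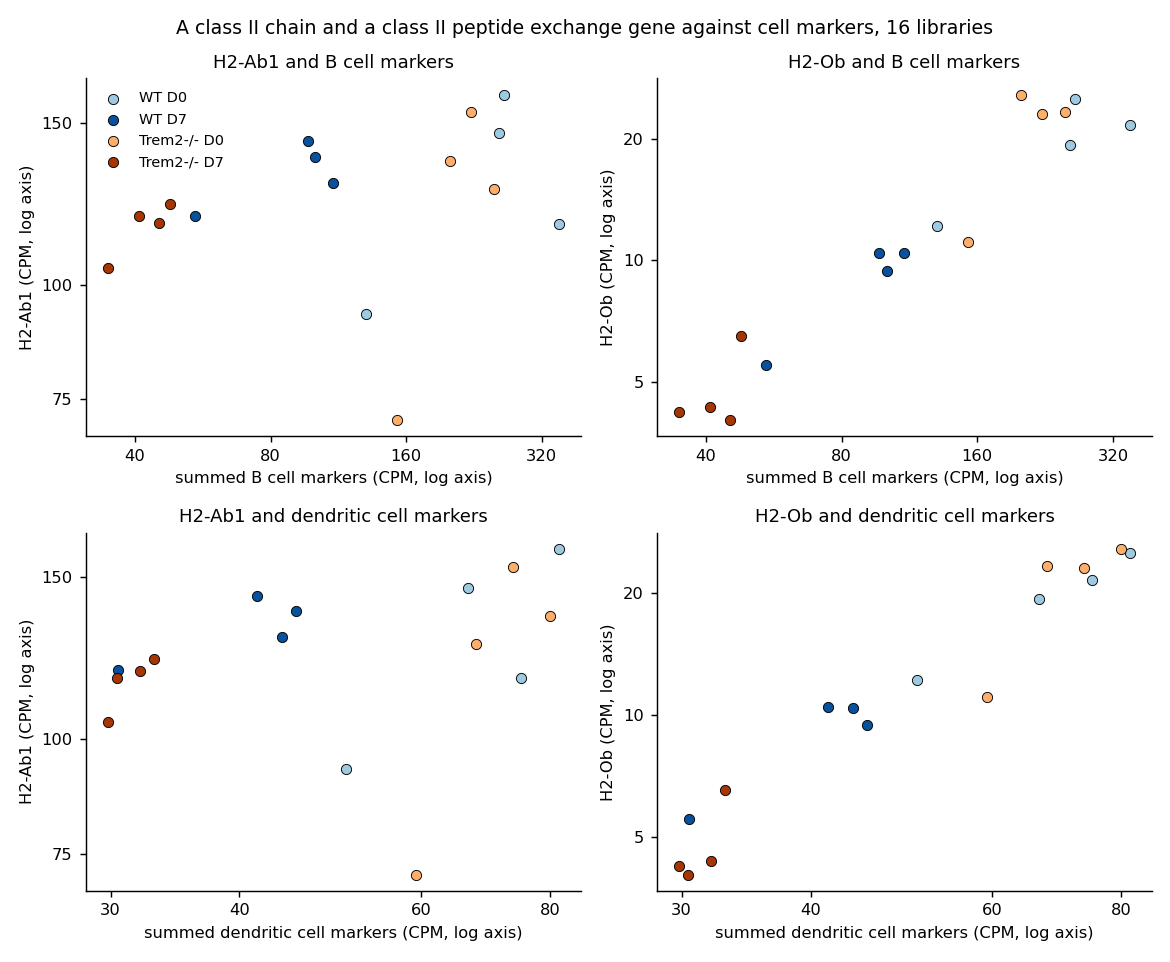
CPM of H2-Ab1 (left) and H2-Ob (right) against summed B cell markers (top) and dendritic cell markers (bottom) in 16 libraries, all axes logarithmic. H2-Ob falls along with both sums from D0 to D7 (r = 0.966 and 0.976), while H2-Ab1 stays between 71.2 and 160.9 CPM (r = 0.265 and 0.268).

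Ciita had an r of 0.929 with H2-Ob, 0.812 with Cd74 and 0.314 to 0.442 with the 3 chains over the 16 libraries, as a description. With group means removed these were 0.717, 0.747 and 0.513 to 0.66. Cd74 had an r of 0.763 to 0.844 with the chains, and 0.902 to 0.945 with group means removed.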

How the data were processed

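Bulk RNA-seq of knee joint cells was analysed in 16 libraries, grouped by the genotype and injury state of their labels. The deposited signal values are CPM made by the authors from reads aligned to mm10 (GRCm38) with STAR, counted per gene with featureCounts and normalized with the TMM method of edgeR, whose versions, annotation and strand setting are not given in the sources used here. A gene listed 2 times with identical values was counted once. Columns of samples without a match numbered 0.

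Within a tolerance of 0.01 read, 100% of the values were whole multiples of 1 read, which gave 11567073 to 32867818 reads per library (median 16399898). A value of 3 reads corresponded to 0.101 to 0.25 CPM, a limit that covers counting error only. The 13173 genes that reached 1 CPM in 4 or more libraries were fitted on log2(CPM + 1) with limma 3.58.1 in R 4.3.3 (eBayes with trend, 4 groups as 1 factor). The call rule, an unadjusted p under 0.05 with a log2 fold change beyond 0.32, is that of the study's methods, which ran limma with voom. Single values and ratios were tested by exact two-sided permutation (70 assignments, smallest p 0.0286, scipy 1.17.1, numpy 2.4.6). The fits were tested on simulated data.

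The members and lists were chosen with earlier results of these data known. Values are given for all members, for up to 4 genes of each class II pathway list by largest injury change, for fixed markers, for Trem2 and for the 8 genes most correlated with the members, and other genes are named where a count of 5 or fewer is listed. List counts and sums include 2 genes whose own values are not reported here. Alternatives were pseudocounts of 0.1 and 5, no filter or a mean of at least 5 CPM, quantile and median-of-ratios scaling, only the compared groups, no trend, each library left out, a block for the replicate number, edgeR 4.0.16, voom and DESeq2 1.42.0 on the recovered reads, adjusted p-values and a 1.5-fold threshold. Leaving out the 2 D0 libraries with the lowest chain values, ratios to marker lists, other pseudocounts and scaling in the permutation tests, and a pseudocount of 1 in the ratios to Cd74 were added after seeing the data.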

Additional observations from a re-analysis of the deposited data

Results flagged for a closer look

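In 10 of 160 groups of 4 libraries, 1 library stood apart from the others, with a gap to its nearest neighbour, as a share of the whole range, above Dixon's 95% critical value. Chance gives about 8, or 1 in 20. H2-Aa stood apart in WT D7 replicate 3 (149 CPM against 119.6 to 122, gap 0.907 of the range). Ciita did so in WT D7 replicate 1 (4.46 against 2.49 to 2.72 CPM, 0.882), 1 of the 2 libraries whose removal ended its genotype call at D7, the other being Trem2-/- D7 replicate 2. H2-Oa was low in WT D0 replicate 1 (1.49 against 2.51 to 2.60 CPM, 0.911). H2-Ob was high in Trem2-/- D7 replicate 4 (6.51 against 4.03 to 4.34 CPM, 0.875). WT D7 replicate 4 was low for Ctss (159 against 270 to 288 CPM, 0.862), Ifng (0.475 against 1.60 to 1.64 CPM, 0.965) and the T cell receptor subunit Cd3e (0.594 against 0.905 to 0.965 CPM, 0.839). Cd209a was high in WT D0 replicate 3 (6.80 against 4.90 to 5.17 CPM, 0.856), Ptprc, which encodes CD45, was low in Trem2-/- D0 replicate 4 (418 against 678 to 726 CPM, 0.845), and the summed macrophage markers were low in Trem2-/- D7 replicate 3 (431 against 492 to 502 CPM, 0.861).

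For 7 of 32 genes, the response to injury differed between the genotypes by the interaction in limma with an unadjusted p under 0.05, beside 1075 of the 13173 genes tested, and none passed the Benjamini-Hochberg adjustment. The genotype effect at D7 minus that at D0 was -0.65 for Ciita (limma, adjusted p = 0.61) and -0.83 for H2-Ob (limma, adjusted p = 0.61). It was -0.41 for Nfya (limma, adjusted p = 0.579). Among the macrophage markers it was -0.62 for Adgre1 (limma, adjusted p = 0.58), -0.77 for Csf1r (limma, adjusted p = 0.579) and -0.65 for Cd68 (limma, adjusted p = 0.579). Ptprc had -1.10 (limma, adjusted p = 0.579).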

How the results depend on the processing

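Counts of members called moved with the settings as follows. The WT injury count of 1 became 0 with a pseudocount of 5, a mean of at least 5 CPM (Ciita then untested), only the compared groups, the replicate block, adjusted p-values or a 1.5-fold threshold, and 2 (H2-DMa and Ciita) without the 2 D0 libraries with the lowest chain values. The genotype count at D7 of 1 became 0 with a pseudocount of 5, a mean of at least 5 CPM, adjusted p-values or a 1.5-fold threshold, and 2 (Cd74 and Ciita) with quantile normalization or only the compared groups. The interaction count of 1 became 0 with a pseudocount of 5, a mean of at least 5 CPM, the replicate block, voom or adjusted p-values. With 1 library left out at a time these counts ranged from 0 to 2 for WT injury, 0 to 1 for genotype at D7 and 0 to 2 for the interaction. The Trem2-/- injury count of 3 and the genotype count at D0 of 0 stayed within 1.5 times or at 0 in every setting run. Of 661 alternative values of single members, 627 kept their side of the call rule, 28 lost a call and 6 gained 1. No called direction reversed, while values that were not called changed sign in some settings, mostly those of the chains.

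Replicate numbers were not used as pairs in the main fit. Of 24 same-numbered pairs, 11 had a correlation of deviations over 0.1 (range -0.51 to 0.41). Differently numbered pairs ranged from -0.63 to 0.71, but their share over 0.1 was not set beside it. These values therefore cannot show whether the numbers pair the libraries. The replicate block ended the calls of Ciita in WT and of Ciita, H2-Ob and Adgre1 in the interaction and of Flt3 for genotype at D7, and made Ifng called in the interaction. Fold changes of Ciita, H2-Oa and H2-Eb2 depend on the pseudocount because these genes are low, with group means of 0.54 to 5.21 CPM. Over all 20 alternatives that could test it, pseudocounts among them, the injury change of Ciita in Trem2-/- mice ran from -1.51 to -0.57. With 4 libraries a group, differences of the chains below about 0.4 log2 units lay within the 95% intervals.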

Other observations

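Other cell markers were lower at D7 as well, beside 18.2% of all genes called lower in WT and 27.9% in Trem2-/- mice. All 7 neutrophil markers were called lower in both genotypes (medians -1.34 and -2.14), and S100a8, a neutrophil granule protein gene, fell by 1.52 and 2.12 log2 units. Monocyte markers (3 of 5 listed) had 1 called lower in WT and 3 in Trem2-/- mice. T and NK cell markers had 6 of 7 called lower in each, with medians of -0.74 and -1.12, and Cd3e, a T cell receptor subunit, had log2 fold changes of -0.40 (not called, but called without WT D0 replicate 1 or 4) and -0.99. All 6 leukocyte genes were called lower in both genotypes (medians -0.96 and -1.94), with Ptprc at means of 514 and 305 CPM at D0 and D7 in WT and of 633 and 173 CPM in Trem2-/- mice. Joint stromal markers had 6 of 8 called higher in WT and 7 in Trem2-/- mice (medians 2.71 and 4.19), against 19.3% and 26.5% of all genes.

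Outside all lists, the genes whose pattern over the 16 libraries was most like the mean z score of the 6 members were Txk (r = 0.891), Tigit (0.886), Ctsw (0.881), Il2rb (0.876), Ccl5 (0.876), Sh2d2a (0.868), Tcf7 (0.863) and Gzmb (0.853). With group means removed they were Klrc1 (0.939), Txk (0.923), Il2rb (0.907), Ctsw (0.904), Tigit (0.899), Il21r (0.886), Cd2 (0.886) and Gzmb (0.881). The values share libraries and scaling, were picked as the highest of all genes, and have no test.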
